A study of Mus musculus with 12 samples.

Results

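The comparison described here set PUER cells that expressed β-catenin-S33Y against PUER cells with the empty vector, both after 24 h of 4-hydroxytamoxifen (4-OHT), across all genes measured. It rests on 6 of the 12 arrays of the study, 3 for each vector, and the arrays were chosen by their labels alone. PUER cells are a mouse myeloid progenitor line without PU.1 of its own, into which the transcription factor PU.1 was put as a fusion to the hormone-binding domain of the estrogen receptor, so that 10 nM 4-OHT switches PU.1 on. All cells of both groups carried that fusion, all had been infected with the retrovirus MIGR1, and all had been sorted as GFP-positive 5 days after infection. The MIGR1 of the control group held GFP alone (vector cells), and that of the other group held β-catenin-S33Y beside GFP (S33Y cells), with expression in both driven by the retrovirus. The remaining 6 arrays were of the same cells at 0 h, before 4-OHT, with 3 arrays for each vector. Arrays of a group are lettered A, B and C, and no label states that they stand for separate cultures. The p-values therefore reflect only how far these samples vary among themselves, some of which could be technical. Infected cells that spent the same 24 h without 4-OHT, or that lacked the PU.1 fusion, were not analysed here.

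β-catenin is the messenger of the canonical Wnt pathway. In resting cells a complex of Axin, APC and the kinases CK1 and GSK3 phosphorylates it at serines near its amino end, which marks it for destruction, and when the complex is stopped β-catenin enters the nucleus and joins TCF/LEF factors at their target genes. The S33Y form has a tyrosine in place of such a serine and escapes destruction. PU.1, encoded by Spi1, is an ETS-family factor that binds purine-rich DNA and is needed for macrophages to form, and much of the surface of a macrophage, its Fc receptors, integrins, lectins and lysosomal proteases, is encoded by genes that PU.1 is known to activate.

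Total RNA was measured as Cy3-labelled cRNA on Agilent mouse whole-genome arrays, and the values used are the authors' normalized log2 values, 1 probe for each gene. Of 27676 genes, 22461 passed a filter on dim signals and were tested with limma. A difference was called at a Benjamini-Hochberg adjusted p below 0.05, and every adjusted p below comes from that fit unless an alternative setting is named beside it. On the 24 h arrays the median scanned intensity ranged from 133.5 to 208, and each array had 47.4% to 50.8% of its genes above a background bound. Normalized values of the 24 h arrays correlated at 0.993 to 0.995 within a group and at 0.986 to 0.991 between the groups. At the bright end, 503 genes were at the scan ceiling on all 6 arrays. No difference can be read from those 503 genes, whose median log2 difference was 0.11 and of which 0 were called. Among them were the myeloid granule genes Mpo, Ctsg, S100a8 and S100a9 and the lysozyme genes Lyz1 and Lyz2, which mark the myeloid lineage of the line. Of 21 lymphoid genes tested, 14 lay below background on all 6 arrays, as did 7 of 10 fibroblast and epithelial genes.

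Ctnnb1, which encodes β-catenin, was measured first as a check of the labels. Its normalized log2 level was 13.67, 13.81 and 13.77 on arrays A, B and C of the vector cells and 13.56, 13.64 and 13.76 on those of the S33Y cells. The groups overlapped, and the difference of -0.10 ± 0.09 (log2, SE, n = 3 in each group, limma adjusted p = 0.515) was not called. No source used here gives the position of the probe, which may lie outside the retroviral insert, and the array neither bears out nor contradicts the label. Spi1 (listed as Sfpi1), whose probe may read the PU.1 fusion, was at 12.02, 12.09 and 11.91 in vector cells and 12.11, 12.17 and 12.25 in S33Y cells, a difference of 0.17 ± 0.11 (adjusted p = 0.348). The levels of Spi1 therefore lay close together, with every S33Y array above every vector array.

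After 24 h of 4-OHT the S33Y cells had lower levels than the vector cells of 18 of 32 macrophage genes and 9 of 12 myeloid C-type lectins, and higher levels of 7 of 10 eosinophil genes. Mast cell and progenitor lists held fewer calls, with 6 of 23 and 6 of 21 members higher. In all, 4169 of 22461 genes were called, or 18.6%. Of these, 1950 (8.68%) were higher and 2219 (9.88%) lower in S33Y cells, and the median log2 difference of all genes tested was 0.03. The 24 h counts of every list are to be read beside these shares. Large differences were more often downward: 382 called genes were lower by at least 2-fold and 179 were higher by as much, and at 4-fold the numbers were 53 and 30. The 3 arrays of one vector did not overlap those of the other in 7135 genes (31.8%), so separation alone is common here. The split of the calls moved with the scaling of the arrays: 46.8% of the calls were upward with the authors' normalization, 59.9% when each array was scaled to its 75th percentile and 54.3% after normexp and quantile normalization. In bulk RNA, fewer cells of a type and less RNA in each cell cannot be told apart, and this holds for every difference below. In the plot of difference against level, the called genes reached from the dimmest to the brightest measured signals.

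**Figure D1:**
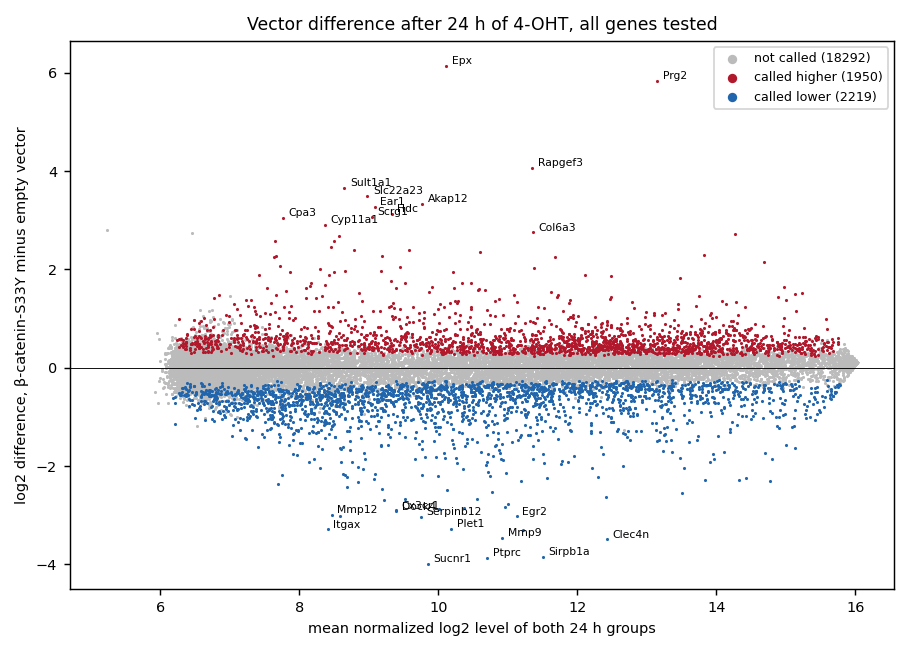
Log2 difference at 24 h (β-catenin-S33Y minus empty vector, vertical axis) against the mean normalized log2 level of both 24 h groups (horizontal axis) for 22461 genes. Red points are the 1950 genes called higher, blue points the 2219 called lower and grey points the rest, with the 12 largest differences in each direction named, from Epx at 6.14 to Sucnr1 at -3.98.

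Of the 32 macrophage receptors and effectors tested, 18 were called lower and 0 higher, with a median log2 difference of -1.0 against 0.03 for all genes. Adgre1 (Emr1 in the table), which encodes the F4/80 antigen of macrophages, was at 14.75, 14.84 and 14.74 in vector cells and at 11.95, 12.37 and 12.37 in S33Y cells. All S33Y arrays were thus well under all vector arrays, yet far above background, and the difference was -2.54 ± 0.12 (5.83-fold lower, adjusted p = 1.21e-07). Cx3cr1, the receptor of the chemokine fractalkine on monocytes, was at 10.82, 10.64 and 11.06 against 8.15, 7.81 and 7.85, or 7.48-fold lower (-2.90 ± 0.19, adjusted p = 1.18e-06). Mmp12, the elastase of macrophages, was at 9.87, 9.96 and 10.07 in vector cells and below background on all 3 S33Y arrays, a fold of at least 5.99 (adjusted p = 6.54e-07). Msr1, a scavenger receptor for modified lipoproteins, was also below background on all S33Y arrays and at least 2.80-fold lower. Ccr2, the receptor that draws monocytes out of the bone marrow, was 2.77-fold lower, and Itgam, which encodes CD11b, was 2.06-fold lower (-1.04 ± 0.11). Csf1r, the receptor of macrophage colony-stimulating factor, was dim in both groups, at 8.02, 7.85 and 7.97 against 7.35, 7.43 and 7.27, with 2 of the 3 S33Y arrays below background. Its difference of -0.60 ± 0.19 stood just outside the threshold (adjusted p = 0.0502), and over the alternative settings its adjusted p ran from 0.00377 to 0.127. The remaining members not called ranged from Axl at -0.89 to Ly86 at 0.47. They included Lyz1 and Lyz2, which were at the ceiling, and Mrc1, Gas6 and Ms4a7, which were below background on all 24 h arrays. The count of 18 stayed at 18 when any 1 of the 24 h arrays was left out. The log2 of the list's summed level ran from 18.64 to 18.85 over the vector arrays and from 17.98 to 18.15 over the S33Y arrays.

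**Figure D2:**
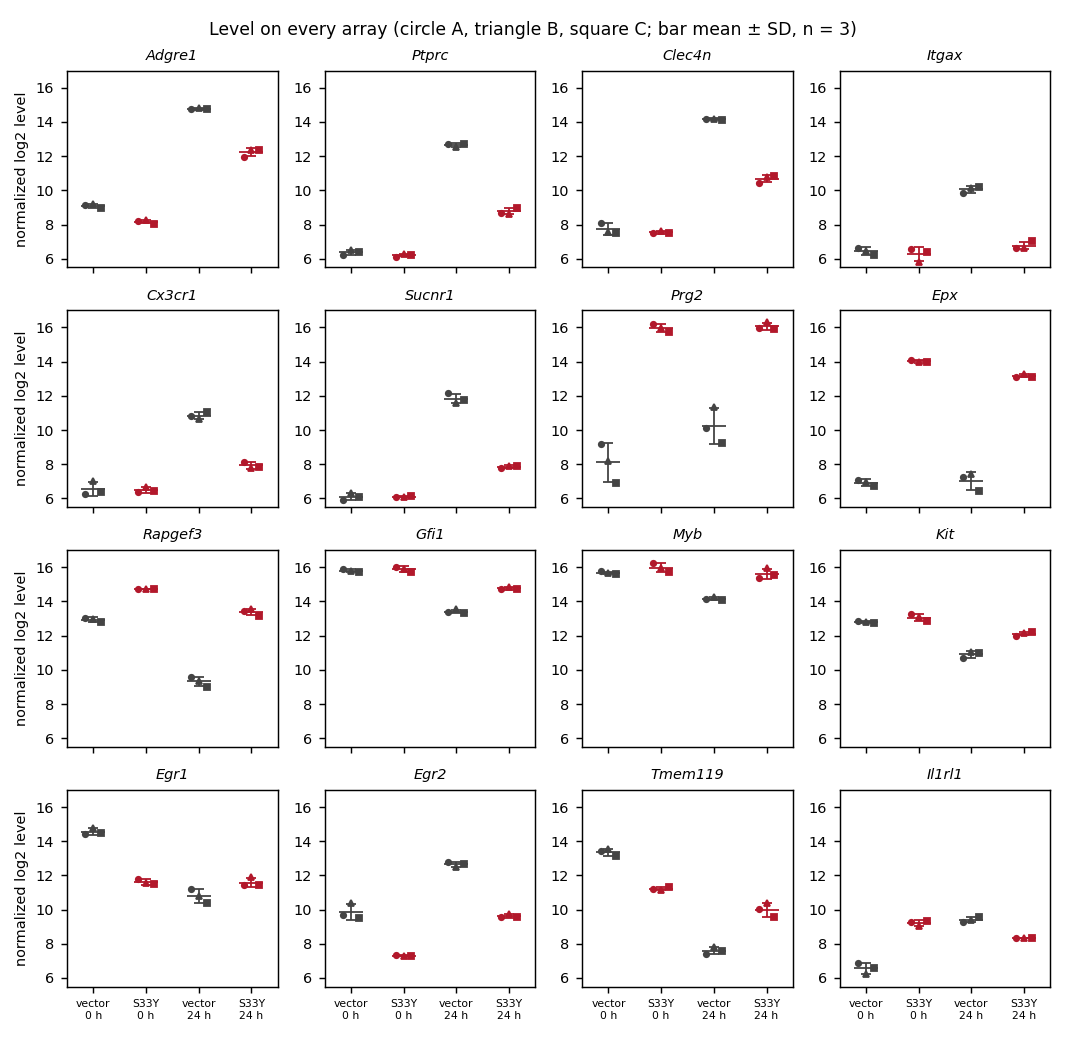
Normalized log2 level of 16 genes on every array (vertical axis) for empty vector and β-catenin-S33Y at 0 h and at 24 h (horizontal axis), grey for vector and red for S33Y, with symbols for arrays A, B and C and bars at the mean ± SD of 3 arrays. Adgre1, Ptprc, Clec4n, Itgax, Cx3cr1 and Sucnr1 were at 9.17 or below on every array at 0 h, and their groups did not overlap at 24 h. At 0 h the groups of Adgre1 did not overlap either, while those of the other genes just named did. The groups of Prg2 and Epx did not overlap at either time.

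The 12 largest downward differences held further genes of the myeloid surface. Sucnr1, the G-protein-coupled receptor for succinate, was at 12.15, 11.60 and 11.78 in vector cells and 7.79, 7.89 and 7.91 in S33Y cells, 15.8-fold lower (-3.98 ± 0.14, adjusted p = 1.51e-08). Ptprc, the gene of the leukocyte tyrosine phosphatase CD45, was at 12.69, 12.51 and 12.71 against 8.68, 8.64 and 8.98, 14.6-fold lower (-3.87 ± 0.12, adjusted p = 8.8e-09). Both genes were thus of mid-range signal in vector cells and not far above background in S33Y cells. Sirpb1a (listed as Sirpb1), an activating receptor with close copies in the genome that the probe may not tell apart, was 14.5-fold lower (-3.85 ± 0.12). Plet1 (listed as 1600029D21Rik), a membrane-anchored protein, was at 11.99, 11.66 and 11.84 against 8.60, 8.63 and 8.40, 9.72-fold lower. Dock4, an activator of the small GTPase Rac, was 7.58-fold lower and Serpinb12, an intracellular protease inhibitor, 8.14-fold lower. All 12 of the largest downward differences kept their call under every alternative setting tried.

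Lectins, Fc receptor signalling genes and integrins held further downward calls. Of 12 myeloid C-type lectins, receptors that read sugars on microbes and dying cells, 9 were called lower and 0 higher, with a median of -1.10. Clec4n, which encodes Dectin-2, was at 14.19, 14.19 and 14.13 in vector cells and 10.45, 10.76 and 10.83 in S33Y cells, 11.2-fold lower (-3.49 ± 0.16, adjusted p = 8.62e-08). Clec7a, which encodes the β-glucan receptor Dectin-1, was 3.90-fold lower, and Clec4b1 was 3.63-fold lower. The Clec4 genes are neighbours of similar sequence, so their probes may share signal. Of 18 genes of Fcγ receptors and ITAM signalling, the pathway that couples such receptors to kinases, 10 were lower and 2 higher (median -0.57). Blnk, an adaptor downstream of the kinase Syk, was below background on all 3 S33Y arrays and at least 1.77-fold lower, and Prkcd, a protein kinase C, was at least 2.28-fold lower because 1 vector array was at the ceiling. Fcgr3, an activating Fcγ receptor, was at 15.53, 15.20 and 15.35 against 14.47, 14.36 and 14.27 (-1.0 ± 0.13). The inhibitory receptor gene Fcgr2b went the other way, at 13.52, 13.49 and 13.47 against 14.14, 14.06 and 14.22, 1.56-fold higher (0.64 ± 0.09, adjusted p = 0.000472). Fcgr4 (listed as Fcgr3a), a further activating receptor, was also higher, by 1.44-fold. Of 16 integrin genes, 6 were lower and 3 higher. Itgax, which encodes CD11c, was at 9.85, 10.11 and 10.22 in vector cells and below background on all S33Y arrays, at least 6.36-fold lower. Itgb2, the β chain that CD11b and CD11c share, was 2.16-fold lower. Itga2b, the CD41 chain of progenitors and platelets, was at least 1.37-fold higher and below background on all vector arrays.

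Genes for sensing microbes and for inflammatory signals were lower in part. Of 18 Toll-like receptor genes and their partners, 5 were lower and 0 higher (median -0.16). Tlr2, a receptor of bacterial lipopeptides, was at 11.21, 11.27 and 11.24 in vector cells and 9.19, 9.45 and 9.29 in S33Y cells, 3.82-fold lower (-1.93 ± 0.11, adjusted p = 4.81e-07). Ly96, the partner of Tlr4 in binding lipopolysaccharide, was 2.52-fold lower, and Tlr4 itself was 1.81-fold lower. Of 22 inflammatory ligands, 7 were lower and 0 higher. The cytokine gene Il18 was at 12.39, 12.56 and 12.50 against 10.40, 10.66 and 10.60, 3.82-fold lower, and Il1rn, which encodes the antagonist of the interleukin-1 receptor, was 3.62-fold lower. Ltb, which encodes lymphotoxin β, was 2.94-fold lower. Il1b, Il10 and Nos2 were among the 15 members not called, at -0.50, 0.05 and 0.38. Of 15 chemoattractant receptors, 7 were lower and 3 higher. Fpr1, a receptor of bacterial formyl peptides, was at 9.80, 9.63 and 9.82 against 7.62, 7.57 and 7.54, 4.51-fold lower (adjusted p = 3.47e-08). Among those that were higher, Cxcr4, which holds progenitors in the marrow, was at 11.72, 11.14 and 11.22 against 12.38, 12.01 and 12.06 (1.73-fold), and Ccrl2, a non-signalling chemerin receptor, was 2.75-fold higher. Of 6 subunits of the phagocyte NADPH oxidase, which makes superoxide, 4 were lower by small amounts, among them Cybb at -0.56. The oxidase count was the least stable of these, with 2 lower in the fit of the 24 h arrays alone or without S33Y array A.

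Some lysosomal and secreted proteases and some genes of antigen presentation and of the interferon response were lower, while most members of the lysosome, antigen presentation and interferon lists were not called. Of 31 lysosome genes, 11 were lower and 2 higher (median -0.20). Ctss, which encodes cathepsin S, was at 9.68, 9.58 and 9.85 in vector cells and 7.25, 7.78 and 7.61 in S33Y cells, at least 4.30-fold lower, with 1 S33Y array below background. Lgmn, the asparagine-specific protease legumain, was at 11.91, 11.69 and 11.65 against 9.98, 10.02 and 10.04, 3.33-fold lower. Lipa (listed as Lip1), the acid lipase, was 2.80-fold lower, and Ctsc, which encodes cathepsin C, was 2.51-fold lower. Gaa, the acid glucosidase, was 1.71-fold higher. Of 16 matrix proteases and genes of the plasminogen system, 8 were lower and 2 higher. Mmp9, which encodes a gelatinase, was at 12.21, 12.93 and 12.83 against 9.02, 9.51 and 9.03, 11.1-fold lower (-3.47 ± 0.18), and Mmp8, a collagenase, was 3.59-fold lower. Serpinb2, an inhibitor of plasminogen activators, was at least 1.73-fold higher. Of 12 genes of MHC class II and costimulation, 5 were lower and 0 higher. The costimulatory ligand gene Cd80 was at 9.54, 9.70 and 9.82 against 8.59, 8.64 and 8.58 (2.12-fold), and Cd74, the invariant chain, was at least 2.40-fold lower. The class II chains H2-Aa, H2-Ab1 and H2-Eb1 were not called, at -0.07, -0.11 and 0.07. Of 24 interferon-stimulated genes, 7 were lower and 0 higher (median -0.34). Usp18, an ISG15-removing protease, was at 9.72, 9.62 and 9.47 against 7.89, 8.46 and 8.17 (2.69-fold), Gbp2, a guanylate-binding protein, was 2.36-fold lower, and Irf9 (listed as Isgf3g), the DNA-binding part of the interferon complex, was 1.78-fold lower.

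**Figure D3:**
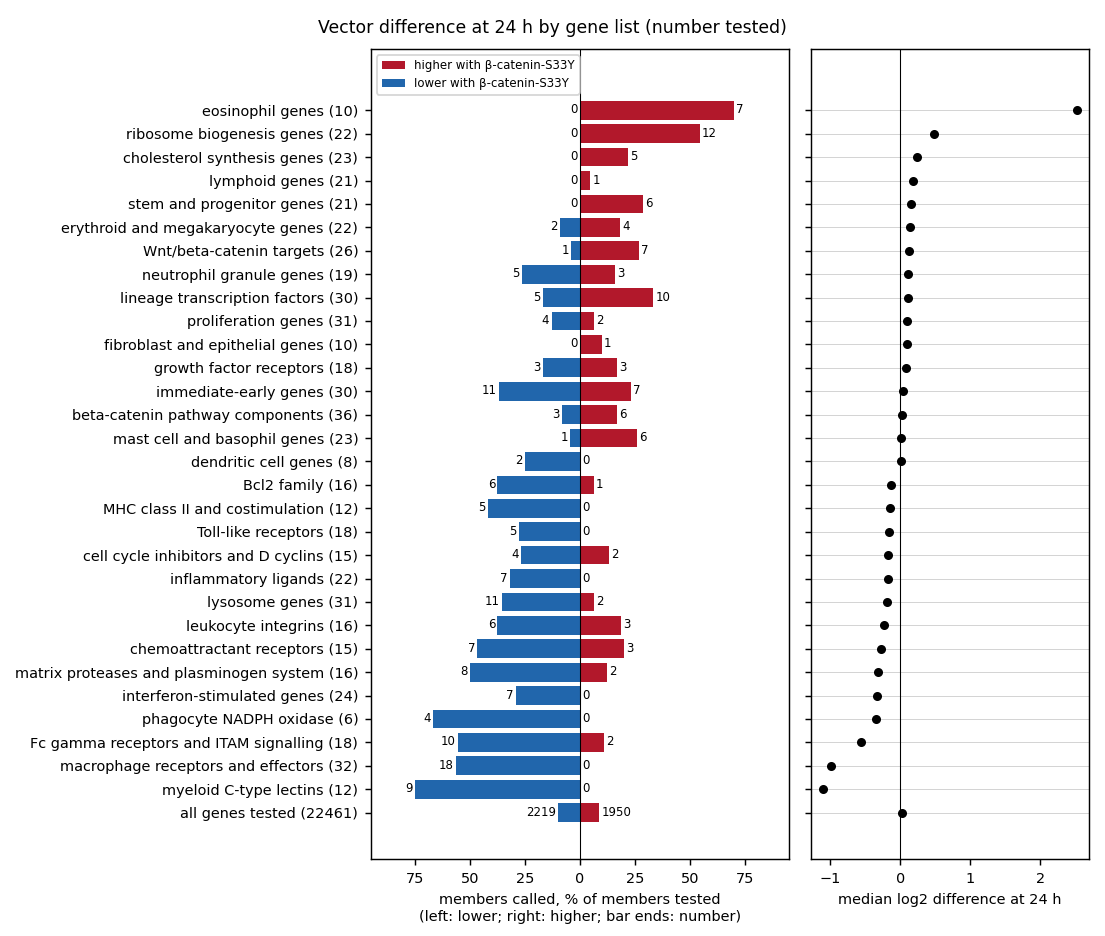
Gene lists ordered by their median log2 difference at 24 h. The left panel gives the share of tested members called higher (red, to the right) and lower (blue, to the left) in S33Y cells with their number at the bar ends, the right panel the median difference, and the bottom row all 22461 genes; the macrophage and lectin lists reach -1.0 and -1.10 and the eosinophil list 2.52.

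Since PU.1 is the factor that 4-OHT switches on in both groups, promoters were searched for a strict PU.1 motif, GAGGAAGT or its complement ACTTCCTC, and for the TCF/LEF motif CTTTGAT or ATCAAAG. The windows were RefSeq's 250 bases before to 50 after each start of a gene (build GRCm38.p6), any start of a gene counted, and neither motif overlaps the other. The PU.1 motif was in 3.20% of all 32851 windows and in 3.34% of the 13129 tested genes that had one. It was in 72 of 1294 lower genes (5.56%) and in 50 of 1348 higher genes (3.71%). Of the genes lower by at least 2-fold it was in 25 of 232 (10.8%), and of those higher by at least 2-fold in 6 of 119 (5.04%). The TCF/LEF motif was in 3.44% of the tested genes, 3.04% of the higher genes and 2.01% of the lower genes. It was in 3.36% of the genes higher by at least 2-fold and in 3.02% of those lower by as much. Median GC content was 58.7% for the windows of tested genes and 55.3% for those of the genes lower by at least 2-fold, and its part in the shares was not tested. A match is a description of the letters, not a binding site. The windows below are those of 4 proteases described above that were lower and hold the PU.1 motif, of the granule protease Prtn3, which holds it and was higher, and of Hdc, which was among the 12 largest upward differences and holds the TCF/LEF motif. Hdc is shown for its letters alone, since the TCF/LEF share of higher genes was not above that of the tested genes. The windows of the Wnt targets Axin2, Lef1, Rnf43, Jag1, Wif1 and Cd44 hold neither motif. Capitals mark the motif.
Mmp12, chr9:7344147-7344446, plus strand: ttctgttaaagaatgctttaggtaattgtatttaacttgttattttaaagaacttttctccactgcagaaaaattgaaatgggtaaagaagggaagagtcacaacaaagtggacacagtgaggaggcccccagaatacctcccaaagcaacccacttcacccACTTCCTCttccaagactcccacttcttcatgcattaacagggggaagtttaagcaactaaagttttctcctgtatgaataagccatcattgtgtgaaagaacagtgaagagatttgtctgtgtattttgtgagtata
Mmp8, chr9:7558179-7558478, plus strand: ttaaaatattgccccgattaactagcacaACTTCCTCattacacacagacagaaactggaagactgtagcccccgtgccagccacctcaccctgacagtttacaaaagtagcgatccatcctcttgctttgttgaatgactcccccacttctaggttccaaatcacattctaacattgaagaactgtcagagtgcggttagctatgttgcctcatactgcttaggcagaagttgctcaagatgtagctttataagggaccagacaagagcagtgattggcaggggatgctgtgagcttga
Ctss, chr3:95526536-95526835, plus strand: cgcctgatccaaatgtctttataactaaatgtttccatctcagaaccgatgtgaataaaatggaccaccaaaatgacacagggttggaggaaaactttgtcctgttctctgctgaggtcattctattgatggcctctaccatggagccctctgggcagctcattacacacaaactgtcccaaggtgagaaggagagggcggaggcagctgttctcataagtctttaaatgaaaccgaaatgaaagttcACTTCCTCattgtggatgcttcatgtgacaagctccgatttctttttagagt
Ctsc, chr7:88277835-88278134, plus strand: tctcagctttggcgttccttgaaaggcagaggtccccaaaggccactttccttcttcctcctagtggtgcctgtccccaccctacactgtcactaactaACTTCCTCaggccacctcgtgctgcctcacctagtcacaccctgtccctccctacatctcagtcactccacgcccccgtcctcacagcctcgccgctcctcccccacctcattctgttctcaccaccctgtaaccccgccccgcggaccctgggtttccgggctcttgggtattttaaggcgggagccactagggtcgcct
Prtn3, chr10:79879417-79879716, plus strand: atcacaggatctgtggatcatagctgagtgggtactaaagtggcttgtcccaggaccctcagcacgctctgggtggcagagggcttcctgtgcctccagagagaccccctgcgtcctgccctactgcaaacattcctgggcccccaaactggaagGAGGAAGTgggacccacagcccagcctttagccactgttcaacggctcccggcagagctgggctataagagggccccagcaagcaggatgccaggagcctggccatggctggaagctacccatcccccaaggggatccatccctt
Hdc, chr2:126618629-126618928, minus strand: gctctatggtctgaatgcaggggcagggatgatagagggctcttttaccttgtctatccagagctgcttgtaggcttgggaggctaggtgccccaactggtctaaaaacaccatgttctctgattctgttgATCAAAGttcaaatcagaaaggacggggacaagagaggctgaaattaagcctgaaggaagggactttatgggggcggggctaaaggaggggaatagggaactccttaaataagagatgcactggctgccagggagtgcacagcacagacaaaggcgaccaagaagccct
The motif began 88 bases before the start in Mmp12, 221 in Mmp8, 2 in Ctss, 151 in Ctsc, 95 in Prtn3 and 119 in Hdc. It read ACTTCCTC, the complement, in these 4 lower genes and GAGGAAGT in Prtn3. Strand did not go with direction among other named genes. Bcl2a1b and Bcl2a1c, which were lower, hold GAGGAAGT. Sult1a1, Fcgr4 and Gla, which were higher, hold ACTTCCTC. Mmp12 has a second listed start whose window holds neither motif.

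The largest upward differences were in eosinophil granule genes. Of 10 eosinophil genes tested, 7 were higher and 0 lower, with a median log2 difference of 2.52. Epx, which encodes eosinophil peroxidase, was at 7.25, 7.42 and 6.45 in vector cells and 13.12, 13.30 and 13.13 in S33Y cells. The vector arrays lay around background, 2 of 3 below it, and the S33Y arrays among bright genes, a fold of at least 55.5 (adjusted p = 1.4e-08). Prg2, which encodes the major basic protein of eosinophil granules, was at 10.10, 11.35 and 9.26 in vector cells and at the scan ceiling on all 3 S33Y arrays, so its fold of at least 56.8 is a lower bound (adjusted p = 1.87e-05). The vector arrays of Prg2 differed widely among themselves (SD 1.05). Ear1 and Ear6, which encode eosinophil-associated ribonucleases with near-identical copies, were at least 8.91-fold and at least 5.46-fold higher. The other called members were Ear3, Ear10 and Prg3, at 2.07, 2.46 and 2.58. The defining surface and enzyme genes Siglecf, Ccr3 and Alox15 were below background on all 24 h arrays. The log2 of the list's summed level was 10.67 to 11.90 over the vector arrays and 16.19 to 16.55 over the S33Y arrays. At 0 h the corresponding ranges were 9.87 to 10.49 and 16.21 to 16.61, so the ranges were also apart before 4-OHT. Prg2 was at the ceiling on all 3 S33Y arrays at 0 h too, so no change of the S33Y sums with time can be read.

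In the mast cell and progenitor lists most members were not called. The 23 genes of mast cells and basophils had 6 called higher and 1 lower, with a median of 0.00. Hdc, the enzyme that makes histamine, was at 8.10, 7.64 and 7.56 in vector cells and 11.20, 10.67 and 10.83 in S33Y cells, 8.77-fold higher (3.13 ± 0.16, adjusted p = 1.63e-07). Cpa3, which encodes the carboxypeptidase of mast cell granules, was below background on all vector arrays and at 9.41, 9.13 and 9.31 on the S33Y arrays, at least 3.84-fold higher. Il1rl1, which encodes the interleukin-33 receptor ST2, was the member that was lower, at 9.27, 9.37 and 9.58 against 8.31, 8.32 and 8.34. The mast cell protease genes Cma1, Mcpt4, Tpsb2 and Tpsab1 were below background on all 24 h arrays, and the log2 summed level of the list overlapped between the vectors, at 15.91 to 16.18 against 15.77 to 16.02. Of 21 stem and progenitor genes, 6 were higher and 0 lower. Kit, the receptor of stem cell factor, was at 10.69, 11.04 and 11.01 against 11.99, 12.18 and 12.19, 2.31-fold higher (1.21 ± 0.13, adjusted p = 4.94e-05). Myb, a transcription factor of dividing progenitors, was at 14.13, 14.27 and 14.11 against 15.37, 15.93 and 15.54, 2.72-fold higher. Hlf, a transcription factor of stem cells, and Lmo2, an adaptor of GATA factor complexes, were 1.95-fold and 1.71-fold higher.

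**Figure D4:**
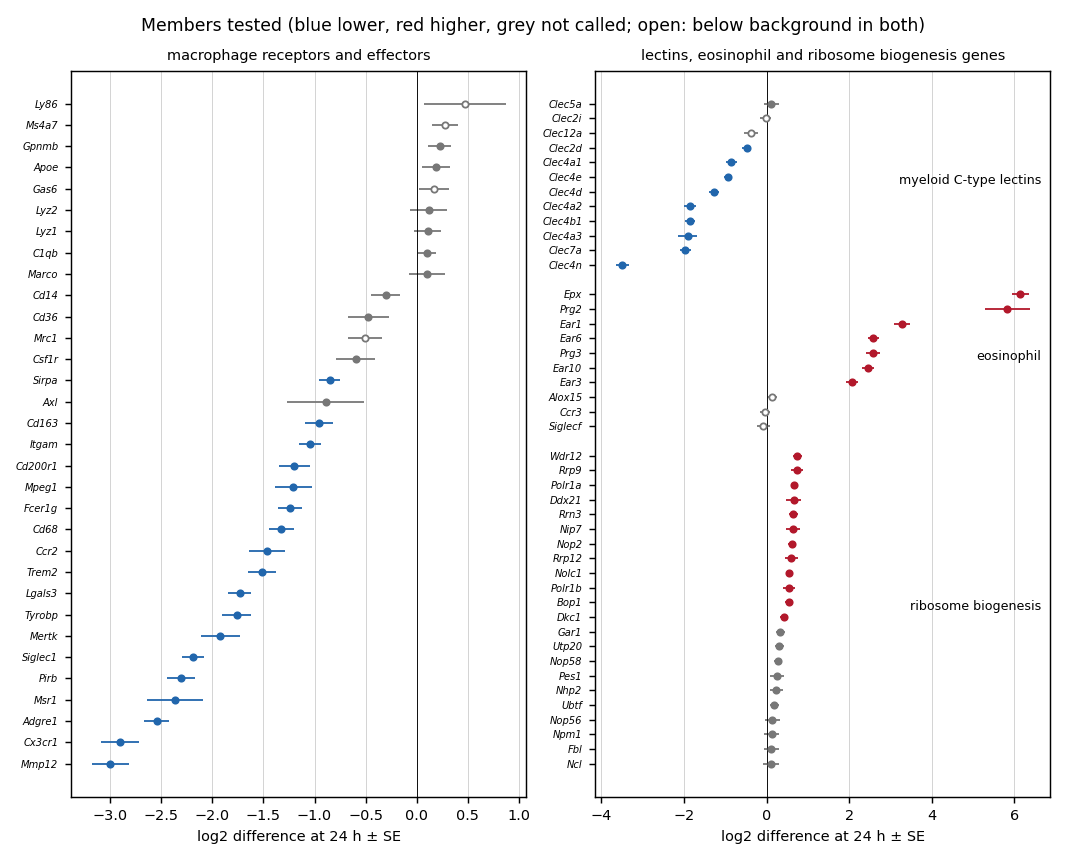
Log2 difference at 24 h ± SE (horizontal axis) for each tested member of the macrophage list (left) and of the lectin, eosinophil and ribosome biogenesis lists (right), 3 arrays for each vector. Blue members were called lower, red ones higher and grey ones neither, and open circles mark genes below background in both groups; macrophage members reach from -3.00 for Mmp12 to 0.47 for Ly86.

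Among 30 lineage transcription factors, 10 were higher and 5 lower. Over all genes 8.68% were higher and 9.88% lower, and every list count in this paragraph is to be read beside these shares. Gata2, a factor of progenitors and mast cells, was at 7.68, 7.27 and 7.50 in vector cells and 9.40, 9.50 and 9.19 in S33Y cells, at least 3.67-fold higher (adjusted p = 1.84e-06). Klf1, the erythroid Krüppel-like factor, was below background on all vector arrays and at least 2.36-fold higher. Gfi1, a repressor active in granulocyte precursors, was at 13.39, 13.53 and 13.31 against 14.71, 14.86 and 14.72, 2.56-fold higher. Gata1 and its partner Zfpm1 were among the higher members too, at 0.85 and 1.24. Id2, an inhibitor of helix-loop-helix factors, was at 10.71, 10.57 and 10.49 against 9.14, 9.05 and 8.62, 3.14-fold lower, and Ikzf1 (listed as Zfpn1a1), a zinc-finger factor of lymphoid and myeloid cells, was 1.85-fold lower. The macrophage-lineage factor Irf8 and the granulocyte factor Cebpa were called higher, at 0.51 and 0.76. Of 18 growth factor receptors, 3 were higher and 3 lower, and after normexp and quantile normalization these counts were 5 and 5. Beyond Kit, Epor, the erythropoietin receptor, was 1.58-fold higher, and Il4ra, the interleukin-4 receptor chain, was 1.67-fold lower. Of 22 erythroid and megakaryocyte genes, 4 were higher and 2 lower, and 8 were higher after normexp and quantile normalization. The log2 summed level of that list was 14.93 to 15.19 over the vector arrays and 15.36 to 15.65 over the S33Y arrays. Treml1, a receptor of platelet granules, was at 8.33, 9.11 and 9.10 against 7.58, 7.65 and 7.41, 2.47-fold lower. Of 19 neutrophil granule genes, 3 were higher and 5 lower, and 6 of the 19 were at the ceiling on all 24 h arrays and not measurable. The log2 summed level of all 19 was 18.69 to 19.02 against 18.85 to 19.26, and because it includes the members at the ceiling, no difference or likeness can be read from it. Prtn3, which encodes proteinase 3 of primary granules, was at 13.85, 13.88 and 13.65 against 14.94, 15.25 and 14.91, 2.36-fold higher, whereas Lcn2, the iron-binding protein of secondary granules, was at 13.29, 13.24 and 13.08 against 12.10, 11.95 and 11.82, 2.37-fold lower.

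Some of the Wnt pathway's own genes were called, beside 8.68% higher and 9.88% lower over all genes. Axin2 and Lef1, which are targets of β-catenin in many tissues, were below background on all 6 arrays, so no fold is given. Axin2 was at 6.56, 6.21 and 6.41 in vector cells and 6.35, 6.25 and 6.46 in S33Y cells (adjusted p = 0.923). Lef1 was at 6.40, 6.53 and 6.51 against 6.85, 6.61 and 6.52 (adjusted p = 0.293), and in neither gene did the values leave the range of background, where differences of this size have no sure direction. Of 26 Wnt/β-catenin targets, 7 were higher and 1 lower (median 0.12), and 16 had a mean below background in both groups. Notum (listed as 5730593N15Rik), a secreted enzyme that inactivates Wnt proteins, was at 7.27, 7.39 and 7.32 against 9.18, 8.84 and 8.94, at least 3.04-fold higher (1.66 ± 0.12, adjusted p = 1.88e-06). Rnf43, a ubiquitin ligase that removes Wnt receptors, was below background on all vector arrays and at 7.47, 7.57 and 7.71 on the S33Y arrays, at least 1.18-fold higher. Jag1, a Notch ligand, was 1.93-fold higher, and Wif1, a secreted Wnt inhibitor, was called higher although all 6 arrays were below background. Cd44, a hyaluronan receptor, was the member that was lower, at 15.12, 15.41 and 15.51 against 14.39, 14.71 and 14.71 (1.68-fold). Myc and Znrf3 were called higher, at 0.55 and 0.85, and Ccnd1 was not called, at 0.13. Of 36 pathway components, 6 were higher and 3 lower (median 0.02, against 0.03 for all genes). The count of lower components was near the share over all genes, so nothing is read from it. Tcf7l2, a TCF family partner of β-catenin, was at 13.16, 13.43 and 13.40 against 11.84, 12.05 and 12.11, 2.52-fold lower (-1.33 ± 0.11, adjusted p = 9.83e-06). Tnks, the tankyrase that marks Axin for destruction, was 1.89-fold higher, and Tle3, a Groucho-type corepressor, was 1.64-fold higher. In the fit of the 24 h arrays alone 3 components were higher and 1 was lower.

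Several genes of the largest upward differences lay outside these lists. Rapgef3, the cyclic-AMP-activated exchange factor Epac1, was at 9.58, 9.36 and 9.02 in vector cells and 13.43, 13.55 and 13.17 in S33Y cells, 16.7-fold higher (4.06 ± 0.14, adjusted p = 1.51e-08). Akap12, a scaffold for protein kinase A, was at 8.36, 7.98 and 7.97 against 11.56, 11.44 and 11.30, 10.0-fold higher. All S33Y arrays of both genes were thus above all vector arrays. Sult1a1, a phenol sulfotransferase, was below background on all vector arrays and at least 8.79-fold higher, and Cyp11a1, which starts steroid synthesis from cholesterol, was at least 5.61-fold higher. Slc22a23 (listed as 3110004L20Rik), of the family of organic ion transporters, and Scrg1, a small secreted protein, were at least 10.4-fold and at least 8.21-fold higher. Col6a3, a chain of collagen VI, was at 9.71, 10.19 and 10.04 against 12.76, 12.62 and 12.82, 6.75-fold higher. Pdgfrb, a growth factor receptor of fibroblasts, was at 9.53, 9.38 and 9.38 against 11.97, 11.72 and 11.66, 5.12-fold higher. It was the 1 called member of 10 fibroblast and epithelial genes, while Col1a1, Col3a1, Dcn, Lum and Pdgfra were below background on all 24 h arrays. The log2 summed level of that list was 12.16 to 12.37 over the vector arrays and 12.89 to 13.08 over the S33Y arrays, and its part in the other differences was not tested. The sum includes Pdgfrb, and 7 of the 10 members were below background, so it is not read as a difference of the list as a whole.

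Differences in growth-related lists were smaller. Of 22 ribosome biogenesis genes, 12 were higher and 0 lower, with a median of 0.48. Wdr12, which takes part in maturing the large ribosomal subunit, was at 13.11, 13.21 and 13.08 in vector cells and 13.73, 14.10 and 13.80 in S33Y cells (1.68-fold), and Polr1a (listed as Rpo1-4), the large subunit of RNA polymerase I, was 1.59-fold higher. Ncl, Npm1, Fbl and Nop56 were at the ceiling on all 24 h arrays. The count was 8 without vector array B and 9 in the fit of the 24 h arrays alone. Of 23 cholesterol synthesis genes, 5 were higher and 0 lower (median 0.24). Dhcr7, the last enzyme of the pathway, was 1.44-fold higher. In the fit of the 24 h arrays alone 2 of the cholesterol genes were called, and without 1 array the count ran from 2 to 6. With the array letters as a block at 24 h, 7 cholesterol and 14 ribosome biogenesis genes were higher. Of 31 proliferation genes, 2 were higher and 4 lower, with a median of 0.10, against 8.68% higher and 9.88% lower over all genes. The block gave 4 higher and 5 lower. Mki67, the gene of the Ki-67 antigen, was at 15.72, 15.92 and 15.76 against 15.16, 14.99 and 15.18, at least 1.61-fold lower with 1 vector array at the ceiling. The factor of S-phase entry E2f2 was 1.63-fold lower. With 75th percentile scaling, 6 proliferation genes were higher and 4 lower. Among 15 cell cycle inhibitors and D cyclins, 2 were higher and 4 lower. The inhibitor gene Cdkn1c, which encodes p57, was at 8.05, 8.23 and 8.06 against 8.95, 9.07 and 9.15 (1.92-fold higher), whereas Cdkn1b, which encodes p27, and Cdkn2b, which encodes p15, were 1.50-fold and 1.51-fold lower. Of 16 genes of the Bcl2 family, which controls cell death, 6 were lower and 1 higher. Bcl2 itself was at 10.84, 10.87 and 11.04 against 11.94, 11.91 and 11.92, 2.01-fold higher, and Bid, which promotes death, was 1.59-fold lower. The pro-survival copies Bcl2a1b and Bcl2a1c, which their probes may not tell apart, were at -1.01 and -0.82.

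Immediate-early genes, which growth and stress signals switch on within minutes, went both ways at 24 h. Of 30 tested, 7 were higher and 11 lower, with a median of 0.04. Egr2, a zinc-finger factor of macrophage differentiation, was at 12.79, 12.48 and 12.64 in vector cells and 9.54, 9.74 and 9.57 in S33Y cells, 8.12-fold lower (-3.02 ± 0.18, adjusted p = 5.95e-07). Its relative Egr1 was at 11.23, 10.81 and 10.36 against 11.42, 11.89 and 11.41, a small upward difference (0.77 ± 0.21, adjusted p = 0.0233) that was no longer called without vector array B or C or without S33Y array B (adjusted p = 0.0596, 0.0933 and 0.0925). Jun, a subunit of AP-1, was at 12.17, 12.07 and 12.23 against 10.53, 10.38 and 10.78, 3.01-fold lower. Dusp1, a phosphatase of stress kinases, was 4.17-fold lower, and Fos, the partner of Jun, was 1.66-fold lower. The related phosphatases Dusp2 and Dusp4 were the opposite, with Dusp4 at 8.0, 8.17 and 7.99 against 10.11, 10.35 and 10.54, 4.86-fold higher. At 0 h the same list had 2 members higher and 19 lower, and the difference between both times was called upward for 17 members and downward for 1. Over all genes the shares at 0 h were 4.38% higher and 6.62% lower. The difference between both times was called upward for 3.74% of all genes and downward for 3.43%.

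To learn which of these differences belonged to the cells after PU.1 activation, the vector difference at 24 h was set against that at 0 h, which shares no array with it, and the difference between both (the interaction) was tested in the same fit. At 0 h, 2469 genes were called (11.0%), 983 higher (4.38%) and 1486 lower (6.62%). The interaction was called in 1610 genes (7.17%), 839 upward (3.74%) and 771 downward (3.43%). Of the genes higher at 24 h, 477 were also higher at 0 h, 24.5% of the former and 48.5% of the latter, and of those lower at 24 h, 614 were also lower at 0 h, 27.7% and 41.3%. A further 1389 genes higher and 1564 lower at 24 h were not called at 0 h, and the interaction was called for 315 and 508 of these, so that for the others a change of the vector difference with time was not shown. Across the 22461 genes, which are not independent, Pearson's r between both differences was 0.41, and over 13934 genes above background it was 0.48.

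Macrophage genes were among those whose measured vector difference was larger after 4-OHT. Of the 32 macrophage genes, 14 had a downward interaction and 2 an upward one, with 3.43% and 3.74% over all genes. At 0 h, 8 of the 32 were already lower in S33Y cells and 2 higher (median -0.11), with 6.62% and 4.38% over all genes. Adgre1 stood at -0.92 at 0 h and Itgam at -0.78, and the interaction of Itgam was not called (-0.26 ± 0.15). At 0 h Ptprc was at log2 levels of 6.21, 6.52 and 6.38 in vector cells and 6.12, 6.25 and 6.24 in S33Y cells, below background on all 6 arrays, and its interaction was -3.70 ± 0.16 (adjusted p = 7.29e-07). For Sucnr1 the interaction was -3.99, for Mmp12 -3.61, for Clec4n -3.31 and for Plet1 -3.25. Sucnr1, Mmp12 and Plet1 were likewise below background on all 6 arrays at 0 h. For them and Ptprc no 0 h difference could be measured, so the interaction largely restates the 24 h difference. The eosinophil genes Epx and Prg2 differed at 0 h by 7.08 and 7.87 and at 24 h by 6.14 and 5.83, and their interaction was not called. Epx was below background on all 3 vector arrays at 0 h. Prg2 was at the scan ceiling on all 3 S33Y arrays at both times. The differences of Prg2 are therefore lower bounds, and no change of them with time can be read. Il1rl1 turned around: it was higher in S33Y cells at 0 h by 2.66 and lower at 24 h by -1.08, an interaction of -3.75. Tmem119, a membrane protein used as a marker of microglia, was at 13.43, 13.54 and 13.14 in vector cells and 11.18, 11.18 and 11.33 in S33Y cells at 0 h. At 24 h Tmem119 was at 7.40, 7.81 and 7.59 against 10.01, 10.40 and 9.55. It was thus lower with β-catenin-S33Y before 4-OHT and at least 5.21-fold higher after it, an interaction of 4.52 ± 0.27 (adjusted p = 4.87e-06). Egln3, an oxygen-sensing hydroxylase, Rcor2, a corepressor, and Glod5 (listed as 2010001H14Rik) turned around in the same direction, with interactions of 2.99, 2.61 and 3.48. Egr1 did so too, from -2.95 at 0 h to 0.77 at 24 h, an interaction of 3.73 ± 0.30. In all, 84 genes were called lower at 0 h and higher at 24 h and 41 were the opposite, among them Mmp12 with its 0 h values below background. The interaction was called for all of them. Calls of opposite sign at both times nearly fix that outcome, so nothing is read from it. Among immediate-early genes, Fos was lower in S33Y cells at both times, by -3.75 at 0 h and -0.73 at 24 h.

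**Figure D5:**
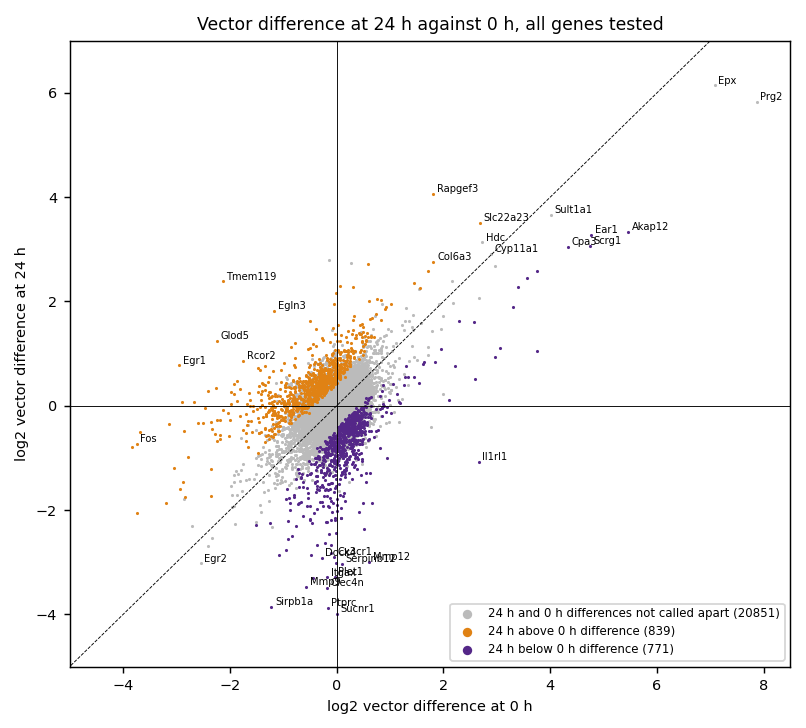
Log2 vector difference (β-catenin-S33Y minus empty vector) at 24 h (vertical axis) against that at 0 h (horizontal axis) for 22461 genes, with a dashed line where both are equal. Orange and purple points are the 839 genes whose difference was called higher and the 771 called lower at 24 h than at 0 h; Sucnr1, Ptprc and Clec4n lie near 0 on the horizontal axis, while Epx and Prg2 are high on both.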

How the data were processed

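Each of the 12 samples was 1 Cy3 array. The deposited non-normalized table holds scanned intensity, and the normalized table holds log2 values, background-corrected and made comparable between arrays by the authors, per the file headers. Limma is named in the submitters' processing notes. The labels and headers used here do not name the normalization method. In R 4.3.3, limma 3.58.1 (moderated two-sided tests, Benjamini-Hochberg over 22461 genes) was fitted to all 12 arrays, with group means and no block and 8 residual degrees of freedom. Genes below the 30th percentile on more than 9 arrays were dropped. The background bound of an array was the mode plus 3 SD of the values below it (7.27 to 7.50 at 24 h). A fold against values under the bound, or from the scan ceiling of 65535, is written "at least", with the bound in place of values under it. Arrays give no counts, so their number limits the precision. Of the gene names, 14728 matched a RefSeq symbol, 4294 a synonym and 8654 neither. Promoter windows came from RefSeq (111 of 139 named genes).

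Deviations from the group means of same-lettered 24 h arrays correlated at 0.34, 0.40 and 0.36 for A, B and C, so a block of the letters at 24 h was added as an alternative, from the data and not the labels. Over all groups, same-lettered arrays correlated at -0.44 to 0.45, and 5 of 12 arrays correlated best with an array of their own letter. The letters are therefore not shown to be a shared batch. The reported values come from the fit without it. On simulated data with 200 changed genes among 22461, the 24 h comparison recovered 80% of changes of 1 log2 unit and 97% of 2, with 10 false among 187 calls. The simulated arrays had independent errors, and only the S33Y arrays at 24 h were changed. In the data the median absolute log2 difference of the 24 h calls was 0.54. The simulated rates therefore do not carry over to calls of that size. The comparison, the gene lists and the tests were chosen with earlier results of these data known. Named genes were the 12 largest called differences each way with groups that do not overlap and a mean above background in a group (clone names left out), 7 genes whatever their values, up to 4 called members of each list plus up to 2 of the opposite direction, and the 6 largest interactions each way among genes also called at 24 h. Some genes that met these rules are not reported here. Other list members named were picked after their values were seen.

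Alternatives tried were normexp (offset 50) with quantile normalization, scaling to the 75th percentile, the filter off or at the 50th percentile, array weights, a replicate block, a trended robust prior, only the groups compared, and each array left out. Added later were a block of the 24 h arrays only, leaving out genes at the ceiling, keeping genes above background, and log2 brightness as a covariate.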

Additional observations from a re-analysis of the deposited data

Results flagged for a closer look

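The vector difference (β-catenin-S33Y minus empty vector) at 24 h differed from that at 0 h for 77 of the 139 named genes by the interaction test of the limma fit. Of all genes 7.17% were called, but the named genes were chosen in part for their 24 h differences and interactions, so nothing is read from their share. The interaction is given below in log2 units, negative where the difference was lower at 24 h. Sucnr1, Ptprc, Clec4a3, Itgax, Cx3cr1, Msr1, Blnk, Plet1, Dock4 and Serpinb12 were below background on every array at 0 h. So were Mmp12, Mmp9, Ctss, Ctsc, Tlr8, Fpr1, Fpr2, Il18, Cd80 and Treml1. For these genes no 0 h difference could be measured, and the interaction largely restates the 24 h difference. Among macrophage, lectin and other myeloid surface genes the values were Sucnr1 -3.99, Ptprc -3.70, Sirpb1a -2.63, Clec4n -3.31, Clec4b1 -2.36, Clec7a -2.05, Clec4a3 -1.91, Itgax -3.11, Cx3cr1 -2.85, Ccr2 -2.01, Adgre1 -1.63, Msr1 -2.88, Blnk -1.46, Plet1 -3.25, Dock4 -2.64 and Serpinb12 -3.12. Secreted and lysosomal enzymes and their inhibitors stood at Mmp12 -3.61, Mmp9 -2.90, Mmp8 -1.57, Ctss -2.24, Lgmn -1.50, Ctsc -1.30, Lipa -1.09, Timp1 -0.85 and Serpinb2 -0.86. Microbe sensors, chemoattractant receptors and inflammatory ligands stood at Tlr8 -1.16, Ly96 -1.20, Tlr4 -0.78, Fpr1 -1.67, Fpr2 -1.40, Il18 -1.79, Ltb -1.30 and Il1rn -0.98. Antigen presentation, interferon-stimulated and Bcl2 family genes stood at Cd74 -1.51, Cd80 -1.40, Usp18 -1.21, Gbp2 -0.95, Irf9 -0.81, Bcl2a1b -1.95 and Bcl2a1c -1.64. Of eosinophil, mast cell and other genes that were higher at both times, the values were Akap12 -2.13, Ear1 -1.49, Ear6 -1.17, Scrg1 -1.68 and Cpa3 -1.29. Ear1, Ear6, Scrg1 and Cpa3 were below background on all 3 vector arrays at 0 h, and Ear6 and Cpa3 at 24 h too. The folds of these genes are lower bounds at both times, so a smaller difference at 24 h is read only for Akap12. Il1rl1 (-3.75) was higher at 0 h and lower at 24 h, as were Clec4b1, Bcl2a1b and Bcl2a1c. Mmp12 was also called higher at 0 h, but it was below background on every array there, where a difference has no sure direction. Treml1, Mki67 and Ccne2 had values of -1.40, -0.50 and -0.50.

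Upward interactions were called for immediate-early genes and their phosphatases, Egr1 3.73, Fos 3.01, Dusp4 1.97, Dusp1 1.67, Dusp2 1.63 and Jun 1.34. Progenitor, granulocyte and lymphoid genes stood at Gfi1 1.28, Myb 1.14, Kit 0.94, Hlf 0.72, Prtn3 1.24, Ngp 0.99, Lck 0.71 and Cdk6 0.74. At 0 h Myb was at the scan ceiling on all 3 S33Y arrays, and Cdk6 on 2 vector and all 3 S33Y arrays. Cdk6 was there on 2 S33Y arrays at 24 h too. Gfi1 was at the ceiling on 1 array of each vector at 0 h and Ngp on 1 vector array. The ceiling can hide part of a 0 h difference, so no change with time is read for Myb and Cdk6. Egr1 was lower at 0 h and higher at 24 h, and the other named genes of this kind were Tmem119 4.52, Glod5 3.48, Egln3 2.99 and Rcor2 2.61. The others were Rapgef3 2.26, Slc22a23 0.82, Col6a3 0.94, Tnks 0.59, Notum 1.04, Fcgr4 0.67, Ncf1 0.75, Pdgfrb 0.90, Gaa 0.60 and Dhcr7 0.60. Of these 77 calls, 67 were kept under all 17 alternatives, and Ccne2, Cdk6, Dhcr7, Fcgr4, Gaa, Lck, Mki67, Ngp, Timp1 and Tnks lost theirs under at least 1. The groups of 3 arrays were too small for a test of single outlying arrays.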

How the results depend on the processing

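The count of 24 h calls was 4169 in the main fit. It was 2551 when only the 6 arrays at 24 h were fitted, and leaving out 1 array gave 2780 (vector array C) to 4823 (vector array A). The counts at 0 h and for the interaction rose to 4350 and 2810 with array weights, and leaving out 1 array gave 1529 to 1832 and 1150 to 2104. A replicate block over all arrays gave 4004 calls at 24 h, 3822 of them shared, and a block of the 24 h arrays only gave 5048, 4110 of them shared. Among named genes the block over all arrays changed the calls of Gla (adjusted p = 0.0601) and Hsd17b7 (adjusted p = 0.0766) and no other at 24 h. No call shared with an alternative changed sign. Axin2, below background, reversed from -0.04 to 0.007 after normexp, 0.062 with 75th percentile scaling and 0.075 with array weights, and ran from -0.13 (without vector array B) to 0.042 (without vector array A). Lef1 reversed from 0.17 to -0.074 after normexp and -0.011 with 75th percentile scaling. The cause was not tested. Of 134 named genes called, 120 kept the call under all 18 alternatives. The others included Pygo2, Itga1, Cybb, Ncf1, Gla, Insig1, Hsd17b7, Cdt1, Rrm2, Ddx21, Plau, Egr1 and Glod5. Of these, all but Ncf1 lost theirs without at least 1 single array, with adjusted p up to 0.168 (Hsd17b7 without vector array B). Apoe and Gpnmb, not called in the main fit, were called higher under both other scalings. Dim genes and genes at the ceiling limit what the arrays can show: 259 calls were below background in both groups.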

Other observations

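The lists of other cell types that are not described above were the lymphoid and dendritic cell genes. Over all genes 8.68% were higher and 9.88% lower. Of 21 lymphoid genes, Lck, a kinase of T cell receptor signalling, was higher at 24 h, at 7.41, 7.16 and 7.03 in vector cells and 8.04, 8.36 and 8.22 in S33Y cells, and no other member was called. The vector arrays of Lck were below background and the S33Y arrays above it, a fold of at least 1.82. The log2 summed level of the lymphoid list was 11.48 to 11.55 over the vector arrays and 11.70 to 11.77 over the S33Y arrays. It includes Lck and 14 members below background on all 24 h arrays, so it is not read as a difference of the list as a whole. Of 8 dendritic cell genes, Itgax and Batf3, a transcription factor of cross-presenting dendritic cells, were lower. Batf3 (listed as 9130211I03Rik) was at 8.46, 8.32 and 8.54 against 7.98, 7.59 and 7.89 (1.54-fold). The log2 summed level of the dendritic list overlapped between the vectors, at 14.83 to 14.99 against 14.71 to 14.87.

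Further genes that were lower by at least 2-fold and hold the PU.1 motif in a promoter window, picked for the motif after their values were seen, included the inhibitory receptor gene Havcr2, which encodes TIM-3, at -2.16, the paired receptors Pirb and Pira1, whose copies probes may not tell apart, at -2.31 and -2.66, the apolipoprotein B48 receptor gene Apobr (listed as Apob48r) at -2.11, and S100a4, a calcium-binding protein, at -1.84.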
